A study of Mus musculus with 4 samples.

Results

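Macrophages are phagocytes of the innate immune system. The lung holds resident alveolar macrophages in the airspace, which clear surfactant and debris, and interstitial macrophages in the tissue, and after injury monocytes from the blood enter and become macrophages. The cells described here are those left in a sort for lineage-labelled alveolar type 2 (AT2) cells that carried macrophage transcripts. They were selected on measured values: at least 5 of Tyrobp, Fcer1g, Ctss, Laptm5, Ccl6, Wfdc17, C1qa, C1qb and C1qc detected, fewer than 2 of the T and NK cell genes Cd3d, Cd3e, Cd3g and Nkg7 detected, and Sftpc, the AT2 surfactant gene, below 5% of the cell's unique molecular identifiers (UMIs). The filter on cells required 500 genes and allowed up to 20% mitochondrial UMIs; 168 of the 10756 cells that passed it met the rule, and these are called rule cells below.

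All groups carried the Sftpc-creER;Rosa26-mTmG alleles and received tamoxifen, which turns on GFP in cells with the recombinase driven by Sftpc. Mice aged 3 or 12 months then received PBS or a single intratracheal dose of 0.8 U/kg bleomycin, a drug that injures the alveolar lining. Bleomycin lungs were taken at day 30, and the PBS libraries are labelled day 0, so the treatments also differ in day. Cells negative for CD45 (the leukocyte antigen, gene Ptprc) and CD31 (the endothelial antigen) and positive for GFP were sorted from 3 pooled mice per group and run as a single 10x Genomics library. There were therefore 4 libraries, 1 per group: 3-month PBS, 12-month PBS, 3-month bleomycin and 12-month bleomycin. No difference between groups has a replicate check, all intervals are 95% intervals that cover counting error only, and each comparison is between libraries and not between conditions. Age, treatment, day of collection and how cleanly each sort removed leukocytes cannot be told apart within such a comparison.

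The rule cells made up a small and unequal share of the libraries. There were 2 among 2394 cells in the 3-month PBS library, 0.084% (exact binomial interval 0.010 to 0.30%). The 12-month PBS library had 16 of 2745 cells, 0.58% (0.33 to 0.94%). After bleomycin the counts were 28 of 2624 cells at 3 months, 1.07% (0.71 to 1.54%), and 122 of 2993 cells at 12 months, 4.08% (3.40 to 4.85%). The order was 3-month PBS, 12-month PBS, 3-month bleomycin and 12-month bleomycin, and the intervals of the 2 middle libraries overlapped while all other neighbours in that order were separate. When every cell was reduced to 2000 UMIs the shares were 0%, 0.34%, 0.95% and 3.74%, in the same order; no rule cell of the 3-month PBS library had 2000 UMIs.

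**Figure D1:**
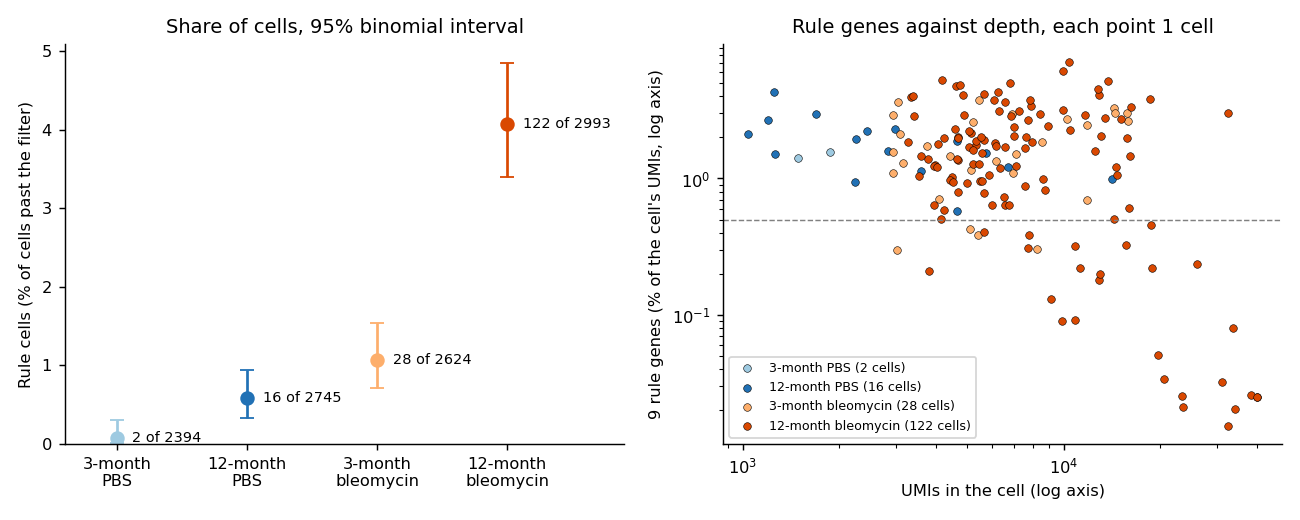
Left, rule cells as a percent of the cells past the filter in each library, with exact 95% binomial intervals for counting error; the share runs from 0.084% (2 of 2394) to 4.08% (122 of 2993). Right, each point is a rule cell, placed by its UMIs and by the percent of them from the 9 rule genes, both on log axes; the dashed line at 0.5% separates 26 cells of the 12-month bleomycin library and 4 of the 3-month bleomycin library from the rest.

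The rule cells were shallower than the sorted alveolar cells around them. Their median UMI count was 1677 and 2643 in the 3- and 12-month PBS libraries and 5429 and 6839 in the 3- and 12-month bleomycin libraries. Cells with Sftpc at 5% of UMIs or more and fewer than 5 rule genes, used below as the background for free RNA, had medians of 4564, 5136, 8552 and 12455 UMIs in the same order. The summed UMIs of the rule cells were 3354, 58668, 197925 and 1244124, so that 1 count in the 3-month PBS library already stands for a normalised level (CPM, counts scaled to the summed UMIs of the rule cells) of 298, against 0.80 in the 12-month bleomycin library. A total of 68 barcodes occurred in more than 1 library; 4 of the rule cells had such a barcode, and none was shared between rule cells.

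The label of macrophage held for only part of the rule cells. The 9 rule genes made up a median of 1.48%, 1.73%, 1.65% and 1.47% of their UMIs in the 3-month PBS, 12-month PBS, 3-month bleomycin and 12-month bleomycin libraries. In the background cells of the 12-month bleomycin library the median was 0.011% and the 99th percentile 0.048%. However, 26 of the 122 rule cells of that library, and 4 of the 28 from 3-month bleomycin mice, had rule genes below 0.5% of UMIs, down to 0.015%, and the deepest of them had 40010 UMIs with rule genes at 0.025%. Spi1, which encodes the myeloid transcription factor PU.1 and was not used by the rule, was found in 2 of 2, 14 of 16, 26 of 28 and 86 of 122 rule cells, at 1491, 750, 404 and 247 CPM. In background cells it was at 0.092, 1.06, 0.82 and 2.38 CPM. Ptprc, the gene of the antigen used to remove leukocytes, was detected in 2 of 2, 9 of 16, 15 of 28 and 82 of 122 rule cells.

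The members nearest the thresholds were as follows. Exactly 5 rule genes were detected in 0, 7, 5 and 21 rule cells of the 3-month PBS, 12-month PBS, 3-month bleomycin and 12-month bleomycin libraries, and all 9 in 0, 0, 8 and 39. Just outside, 3, 2, 10 and 25 cells had 4 rule genes, with rule genes at a median of 1.93%, 0.88%, 0.32% and 0.28% of UMIs. The highest Sftpc share of a rule cell was 4.201%, and the lowest among cells left out for Sftpc alone was 6.56%, both in the 12-month bleomycin library.

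Grouping the 168 cells by expression gave 11 clusters, which are described here by their leading genes; since the clusters were made from these genes, the genes are a description and not a result. A cluster of 21 cells was alveolar macrophage-like, led by the eosinophil-associated ribonuclease genes Ear10, Ear2 and Ear1 with the chitinase-like gene Chil3. A cluster of 16 cells was monocyte-like, led by Adgre4 and Treml4, both known from patrolling monocytes, and had Plac8 in all its cells. A cluster of 8 cells was neutrophil-like, with S100a8 at 29155 CPM. A cluster of 15 cells was dendritic cell-like, led by Fscn1 and Xcr1, and a further 12 cells led by Cd209a stayed unnamed and had H2-Aa, an MHC class II chain, at 16081 CPM.

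The other macrophage groups were tied to the complement genes C1qa, C1qb and C1qc or to lipid and matrix genes. A cluster of 18 cells led by Cdo1, Apoe, Gpnmb and Spp1 matched the list of Trem2 and Spp1 injury macrophage genes; it had Apoe, a lipid carrier, at 27155 CPM, Spp1, the secreted matrix protein osteopontin, at 21477 CPM and Trem2, a lipid-sensing receptor, at 1125 CPM. A cluster of 9 cells was led by Mmp12, the macrophage elastase, and held Spp1 at 17356 CPM and Lpl, lipoprotein lipase, at 2246 CPM; 2 of its top 10 genes were from the alveolar macrophage list and Mmp12 from the injury list, so it stayed unnamed. A cluster of 13 cells led by the chemokine genes Cxcl13 and Ccl12 had the highest C1qa of the 11 clusters, 9055 CPM, with H2-Aa at 20058 CPM and Spp1 at 535 CPM. The largest cluster, 26 cells, was led by Arg1, Saa3 and Ccl7 and had C1qa at 2194 CPM.

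Another pair of clusters went against the label. In 13 cells, all from the 12-month bleomycin library, rule genes made up a median of 0.032% of UMIs, Spi1 was in 15.4% of the cells, the median depth was 23368 UMIs, and the leading genes were Scgb3a2, Cldn10 and Scgb1a1, which belong to airway secretory cells; Scgb1a1 reached 354983 CPM and Jchain, a plasma cell gene, 19657 CPM. In 17 more cells of the same library the leading genes were Prss23, Cd8b1 and Klk1b27; Siglech, a receptor known from plasmacytoid dendritic cells, was in 76.5% of them, Spi1 in 29.4%, and C1qa at 46.3 CPM. Col1a1, a fibroblast collagen gene, was at 1050 CPM in this cluster but came from 11.8% of its cells. Both clusters stayed unnamed.

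**Figure D2:**
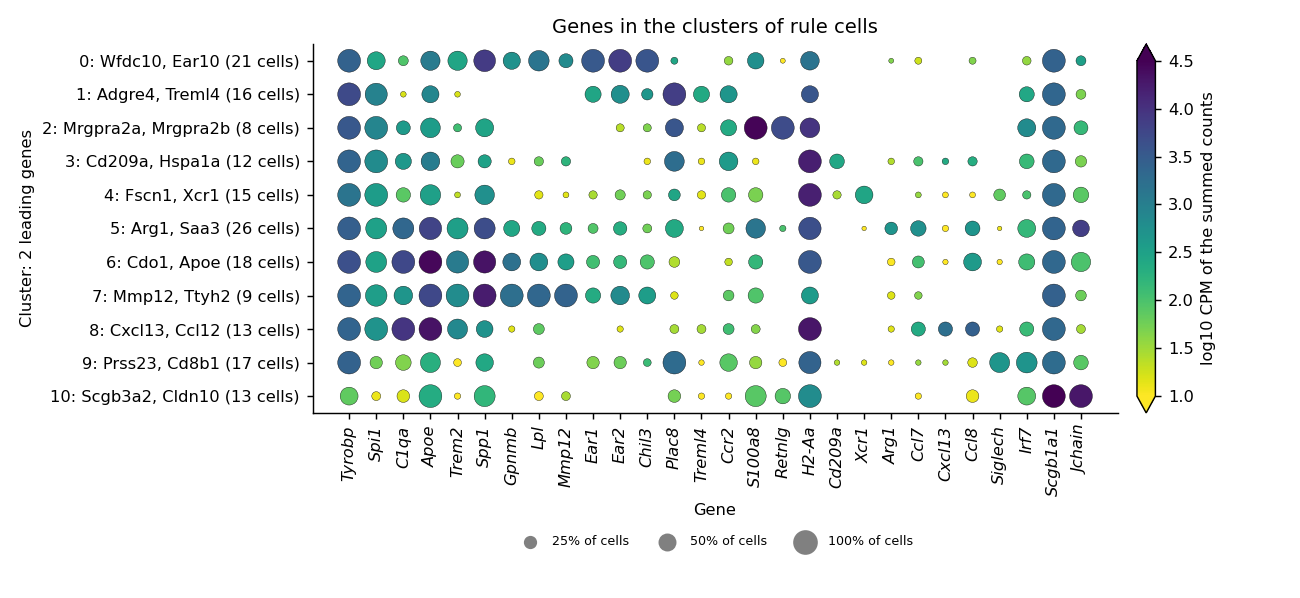
Rows are the 11 clusters of rule cells, named by their number and their leading pair of genes, and columns are genes; the colour is the log10 CPM of the cluster's summed counts (values beyond 1 and 4.5 take the end colours) and the area of a dot is the percent of cells with the gene. Tyrobp is present across the clusters but is weakest in cluster 10, where Scgb1a1 and Jchain are highest.

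By library, the 2 cells of 3-month PBS were an alveolar macrophage-like and a monocyte-like cell. The 16 cells of 12-month PBS were 8 monocyte-like, 3 alveolar macrophage-like, 2 neutrophil-like, 1 dendritic cell-like and 2 of the Cd209a cluster. None of the PBS cells fell into the clusters led by Arg1, Apoe and Gpnmb, Mmp12, or Cxcl13. The 28 cells of 3-month bleomycin placed 2, 4, 5 and 3 cells in those clusters, and the 122 cells of 12-month bleomycin placed 24, 14, 4 and 10. These numbers are given without a comparison, since the clusters were made from genes that differ between the libraries. At a coarser grouping of 8 clusters each of the 11 clusters stayed together, but the Arg1 cluster joined the neutrophil-like cells, the dendritic cell-like cluster joined the Cd209a cells, and the Mmp12 cluster joined the Apoe and Gpnmb cells.

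**Figure D3:**
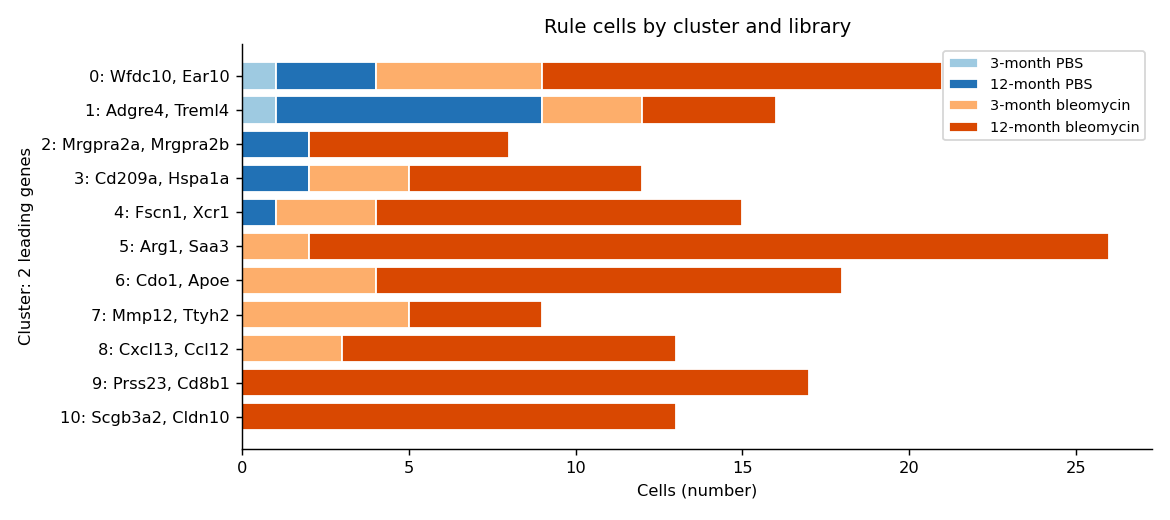
The number of rule cells in each of the 11 clusters, with the bar split by library. The 18 PBS cells lie in clusters 0 to 4, and clusters 9 and 10 hold 12-month bleomycin cells only.

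C1q chains, the recognition part of the classical complement pathway, were not detected in the PBS rule cells. The 3 genes lie side by side on mouse chromosome 4 (GRCm38), C1qa at 136895917-136898803, C1qc at 136889804-136893065 and C1qb at 136880129-136886187, all on the minus strand. C1qa had 0 counts in both PBS libraries, 453 counts or 2289 CPM (2083 to 2510) in the 3-month bleomycin library and 1861 counts or 1496 CPM (1429 to 1565) in the 12-month bleomycin library. The limit that 0 counts allow, set at 3 counts, was 894 CPM for the 3-month PBS cells and 51.1 CPM for the 12-month PBS cells, so that the bleomycin levels stood above the limit of the 12-month PBS cells while the 3-month PBS cells held too few UMIs to place a level below 894 CPM. C1qb was at 1763 and 1153 CPM and C1qc at 1490 and 1020 CPM in the 3- and 12-month bleomycin libraries, and at 0 counts in both PBS libraries. These genes chose the cells, so this is a description: the PBS cells had passed through the other 6 rule genes.

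All 3 chains were detected in 10 of 28 rule cells of the 3-month bleomycin library (35.7%, 18.6 to 55.9%) and in 52 of 122 of the 12-month bleomycin library (42.6%, 33.7 to 51.9%), and none in 13 and 24. A single chain was found in 3 and 27 of them, and 2 chains in 2 and 19. In the 12-month PBS library 0 of 16 had any chain (exact binomial interval up to 20.6%), at a median of 2643 UMIs per cell; the interval limits cells with a UMI, not cells expressing the genes. Background cells held at least 1 chain in 5.01% and 32.1% of the 3- and 12-month bleomycin libraries, but all 3 in 0% and 0.126%; background cells have fewer than 5 rule genes by definition, so this contrast follows in part from the selection.

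Summed over all rule cells of a library, Apoe and Spp1, which the rule did not use, were higher in the bleomycin than in the PBS libraries. Apoe was at 298 CPM from 1 count in the 3-month PBS library, 341 CPM (208 to 526) in the 12-month PBS library, 18264 CPM (17674 to 18870) in the 3-month bleomycin library and 4287 CPM (4173 to 4404) in the 12-month bleomycin library. AT2 cells also make Apoe, and the background cells had 631, 1231, 1014 and 453 CPM. The 12-month PBS rule cells were thus below and both sets of bleomycin rule cells above their surroundings. The single count of 3-month PBS (interval 7.55 to 1661) does not tell. Cells of the same cluster did not divide clearly by Apoe. In the alveolar macrophage-like cluster it was at 440 CPM (53.3 to 1590) in 12-month PBS. The 3- and 12-month bleomycin cells of that cluster had 2003 CPM (1491 to 2634) and 913 CPM (710 to 1155). In the monocyte-like cluster the values were 663, 593 and 1100 CPM in the same order, with overlapping intervals.

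Spp1 was at 298 CPM from 1 count, 119 CPM (48.0 to 246), 16547 CPM (15985 to 17123) and 3414 CPM (3312 to 3518) in the 3-month PBS, 12-month PBS, 3-month bleomycin and 12-month bleomycin libraries. Its background was at or below 31.2 CPM. It was found in 4 of 16 rule cells of 12-month PBS, 20 of 28 of 3-month bleomycin and 90 of 122 of 12-month bleomycin, against 0.0779%, 12.6% and 32.3% of background cells. The level in the 3-month bleomycin library rested on few cells: a single cell gave 52.2% of its Spp1 counts, and without that cell the level was 8534 CPM, while the 12-month bleomycin level without its highest cell was 2991 CPM. The median cell had 2498 CPM in the 3-month and 292 CPM in the 12-month bleomycin library.

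Trem2 had 0 counts in the 3-month PBS library, 2 counts or 34.1 CPM in the 12-month PBS library, and 743 CPM (627 to 873) and 233 CPM (207 to 262) in the 3- and 12-month bleomycin libraries, with background at most 2.77 CPM. Gpnmb, a lysosomal membrane glycoprotein, was at 576 and 349 CPM in the bleomycin libraries and at 0 and 1 counts in the PBS libraries. The iron-storage genes Fth1 and Ftl1 and the lysosomal protease gene Ctsd were also highest in the 3-month bleomycin library among the 3 libraries with more than 2 rule cells. Fth1 was at 5949, 26010 and 13296 CPM, Ftl1 at 9187, 19134 and 8115 CPM, and Ctsd at 426, 6124 and 2541 CPM in 12-month PBS, 3-month bleomycin and 12-month bleomycin. Fth1 and Ctsd were lowest in 12-month PBS and Ftl1 in 12-month bleomycin, and none of the intervals overlapped within a gene.

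Summed over all rule cells of a library, monocyte genes were highest in the PBS libraries. Plac8 was at 2385 CPM (1030 to 4700), 4159 CPM (3653 to 4715), 349 CPM (271 to 441) and 774 CPM (726 to 825) in the 3-month PBS, 12-month PBS, 3-month bleomycin and 12-month bleomycin libraries, and the PBS intervals did not overlap those of bleomycin. The whole monocyte list of 12 genes summed to 4770, 7108, 1127 and 2148 CPM, with 8, 1, 1 and 0 of its genes at 0 counts. The monocyte-like cluster held 1, 8, 3 and 4 of the rule cells of these libraries. Within it Plac8 was at 7031 CPM (6070 to 8102) in 12-month PBS and 4151 CPM (3136 to 5391) in 3-month bleomycin. It reached 10510 CPM (9072 to 12110) in 12-month bleomycin, so 12-month PBS was not highest there. Ccr2, the chemokine receptor of inflammatory monocytes, was at 375 CPM in 12-month PBS, 192 CPM in 3-month bleomycin and 61.9 CPM in 12-month bleomycin, with 0 counts in 3-month PBS. Neutrophil genes moved beside them: S100a9 was at 1909 CPM in the 12-month PBS library, all from 2 cells, and at 70.7 and 646 CPM in the 3- and 12-month bleomycin libraries. Their part in the library sums was not tested.

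**Figure D4:**
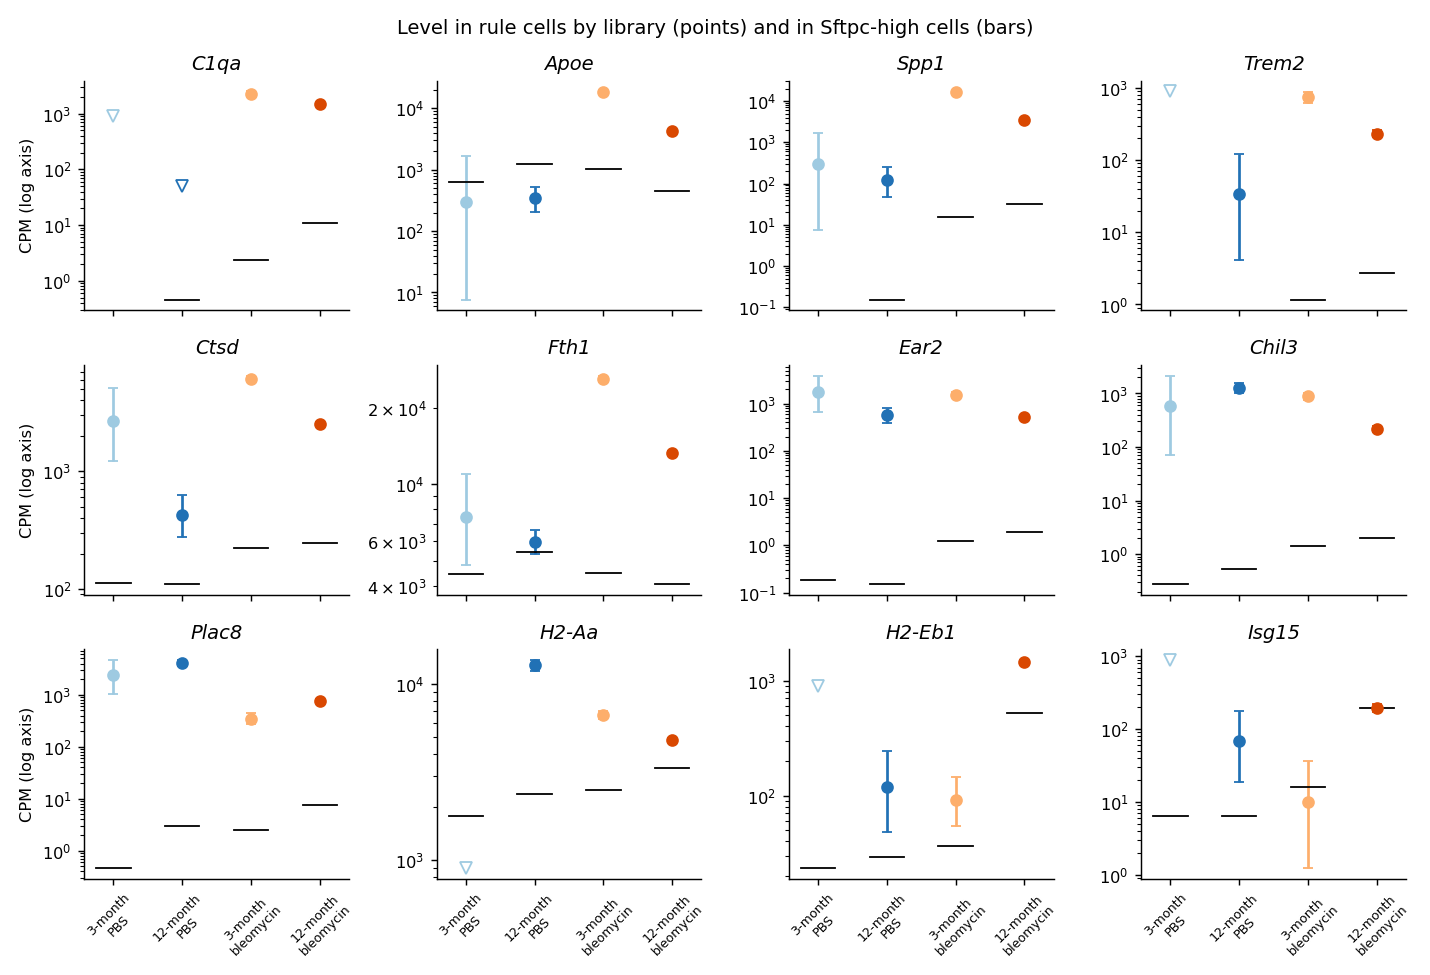
CPM on log axes in the rule cells of each library for 12 genes; points have exact 95% Poisson intervals, open triangles mark the level of 3 counts where none was found, and black bars show the background cells with Sftpc at 5% of UMIs or more (bars at or below 0.1 CPM are not drawn). Trem2 is higher in the bleomycin libraries than in 12-month PBS and Plac8 lower, C1qa is a rule gene and is shown as a description, and Isg15 in the 12-month bleomycin library (195 CPM) lies at its background (197 CPM).

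Resident alveolar macrophage genes were found in part of the rule cells of each library with more than 2 of them. The 21 genes of that list summed to 8945, 3153, 5623 and 2001 CPM in the 3-month PBS, 12-month PBS, 3-month bleomycin and 12-month bleomycin libraries. Ear2 was detected in 2 of 2, 7 of 16, 13 of 28 and 40 of 122 cells, against at most 2.43% of background cells, and its levels were 1789, 562, 1536 and 515 CPM. Marco, a scavenger receptor of alveolar macrophages, was at 0, 17.0, 5.05 and 56.3 CPM and was found in 5 of 122 cells of the 12-month bleomycin library. Pparg, a transcription factor of this lineage, was at 50.5 and 4.82 CPM in the 3- and 12-month bleomycin libraries.

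Within the alveolar macrophage-like cluster the libraries could be set side by side on 3, 5 and 12 cells of 12-month PBS, 3-month bleomycin and 12-month bleomycin. The cluster was made from expression, and Chil3, Ear1 and Ear2 are among its leading genes, so their levels in it are a description. Its 3 cells of 12-month PBS held 4545 UMIs, and the intervals cover counting error only. Spp1 was at 1320 CPM (484 to 2873) in the PBS cells, 16339 CPM (14806 to 17987) in the 3-month and 5518 CPM (5001 to 6073) in the 12-month bleomycin cells. Fth1 was at 17822, 45010 and 43055 CPM, and Lgals3, the lectin galectin-3, at 1540, 4438 and 2871 CPM. Chil3 ran the other way, at 14301 CPM (11038 to 18228), 5067 CPM (4230 to 6020) and 2752 CPM (2391 to 3153), so that none of its intervals overlapped. Ear2 and Ear1 of the same list did not follow Chil3 and were highest in the 3-month bleomycin cells. Ear2 was at 5281 CPM (3383 to 7857), 9701 CPM (8529 to 10989) and 6973 CPM (6390 to 7595). Ear1 was at 3520 CPM (2012 to 5717), 5263 CPM (4410 to 6233) and 2818 CPM (2453 to 3223). Other genes did not separate in this way within the cluster. Ctsd was at 3520, 6088 and 5068 CPM, Trem2 at 440, 668 and 146 CPM and Gpnmb at 220, 628 and 556 CPM. For each of them the PBS interval overlapped both bleomycin intervals. For Lgals3 and for Ftl1 (14961.5, 22976 and 13562 CPM) it overlapped only the interval of the 12-month bleomycin cells. In the monocyte-like cluster Spp1, Lpl and Gpnmb had 0 counts in all 3 libraries, whose limits were 110, 222 and 165 CPM in 12-month PBS, 3-month bleomycin and 12-month bleomycin. Fth1 was there at 4565, 4670 and 3907 CPM in the same order, with overlapping intervals.

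Surfactant transcripts were present in every rule cell. Sftpc made up 0.68 to 4.201% of their UMIs, with medians of 1.55%, 1.22%, 1.27% and 1.27% in the 3-month PBS, 12-month PBS, 3-month bleomycin and 12-month bleomycin libraries. The secretory cluster was highest, with a median of 2.35% (1.49 to 4.201%), and the medians of the other 10 clusters lay between 1.11 and 1.34%. Among rule cells with rule genes at 0.5% of UMIs or more, Sftpc was at 7.5%, 7.6% and 7.9% of its level in alveolar cells in the last 3 libraries, Sftpb, another surfactant protein gene, at 6.6%, 7.5% and 7.2%, and Sftpa1 at 6.7%, 7.5% and 7.4%. The 3 genes thus kept nearly the same ratio as in alveolar cells. Lyz2, a lysozyme gene of macrophages that AT2 cells also express, was at 11966, 29183 and 14735 CPM in these libraries, below its background of 27504, 33900 and 34909 CPM.

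Against alveolar cells (Sftpc at 5% of UMIs or more and fewer than 2 rule genes), the genes outside the rule with the highest ratio, with the libraries weighing the same, were Ear1 at 847-fold, Ear2 at 566-fold, Plac8 at 442-fold and Spp1 at 393-fold. The 2 cells of 3-month PBS weighed as much as each other library; without them, a setting added after the data were seen, the values were 370-fold for Ear1, 396-fold for Ear2, 332-fold for Plac8 and 395-fold for Spp1. Ear1, Ear2, Chil3 (369-fold) and Abcg1 (305-fold), a cholesterol exporter, were in 27.98 to 38.1% of rule cells; without 3-month PBS Abcg1 was 145-fold higher. Other leukocyte genes were found in a larger part of the cells. Alox5ap, of leukotriene synthesis, was 300-fold higher and in 86.3% of rule cells. Coro1a, an actin regulator, was 273-fold higher and in 76.8%, and Cybb, the catalytic subunit of the phagocyte oxidase, 212-fold and in 79.2%. The first 24 of these 25 genes had counts in 4 of 4 libraries and Cybb in 3. Because the rule separates the same cells, these ratios describe the selection and test nothing.

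The bleomycin libraries, with 122 and 28 rule cells, were the only pair with at least 20 rule cells each, the number needed here for a ratio. Of 1381 genes that reached 100 CPM in either library, 101 were 2-fold or more higher in the 12-month library, 7.31%, and 91 were 2-fold or more lower, 6.59%; the median log2 ratio was -0.11. A log2 ratio here is of summed CPM in 12-month over 3-month cells, with 0.5 added to each count and an exact interval for counting error. The same comparison was run on the 96 and 24 rule cells with rule genes at 0.5% of UMIs or more, a limit chosen after the data were seen, which drops all 13 cells of the secretory cluster and 11 of the 15 dendritic cell-like cells. It gave 84 genes higher, 6.02%, and 39 lower, 2.8%, of 1395, with a median of 0.04.

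The highest ratios over all rule cells included genes of the secretory cluster, and their ratios were smaller or turned without it. Scgb3a2 was at 4684 against 30.3 CPM, a log2 ratio of 7.16 (6.15 to 8.72), but 99.4% of its 12-month counts were in that cluster. Scgb1a1 had a log2 ratio of 5.05 over all rule cells and -0.25 among cells with rule genes at 0.5% of UMIs or more. For Hp, haptoglobin, the values were 3.58 and -0.073, and for Retnla, a gene of alternative activation also made by airway cells, 5.66 and 2.98. Sparc and Clu rested on a single cell with 68.4% and 66.8% of their counts in the 12-month library.

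Interferon-response genes were higher in the 12-month bleomycin cells in both sets. Of the 7 genes of the list of 20 that were tested, 6 were higher and 0 lower among all rule cells (7.31% and 6.59% of all genes tested), and 9 of 10 tested were higher among those with rule genes at 0.5% or more, where the median log2 ratio was 3.29. Irf7, a master regulator of the interferon response, was at 204 against 5.05 CPM (log2 ratio 4.75, 2.85 to 10.6; 1 count in the 3-month library) and was found in 68 of 122 against 1 of 28 cells. Isg15, a ubiquitin-like effector, was at 195 against 10.1 CPM (3.95, 2.40 to 7.33). Ifi27l2a was at 1634 against 233 CPM (2.79, 2.36 to 3.30) and Bst2, tetherin, at 776 against 119 CPM (2.67, 2.08 to 3.41) in the cells with rule genes at 0.5% or more. At an equal depth of 3000 UMIs Isg15 was in 50 of 122 and 2 of 25 cells, and Ifitm3 in 80 of 122 and 6 of 25. By its level Ifitm3 was the 1 of the 7 that did not pass 2-fold over all rule cells, at 1045 against 647 CPM (0.69, 0.43 to 0.97).

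The alveolar cells of the same libraries differed in the same direction. Isg15 was at 197 against 16.2 CPM, Ifi27l2a at 849 against 22.6 CPM and Bst2 at 270 against 53.8 CPM in the background cells of 12- and 3-month bleomycin. In the 12-month library Isg15 in rule cells (interval 171 to 222 CPM) held the background value, and Irf7 was above it, at 204 against 58.0 CPM. The part of free RNA in these levels was not tested. The 12-month PBS rule cells had Ifi27l2a at 1585 CPM and Ifitm3 at 2182 CPM over backgrounds of 68.4 and 14.7 CPM.

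MHC genes divided by class. Of the 10 class I and antigen-processing genes tested, 5 were higher and 0 lower in the 12-month bleomycin cells, against 7.31% of all genes higher, and 7 were higher in the set with rule genes at 0.5% or more, against 6.02%, among them B2m, the class I light chain, at 7456 against 2998 CPM (1.31, 1.19 to 1.45). The class I list summed to 9069 and 13644 CPM in the 3- and 12-month bleomycin rule cells. In the background cells of these libraries it summed to 5236 and 14879 CPM, so the surrounding cells differed in the same direction. The part of free RNA in these levels was not tested. Of the 7 class II genes tested, H2-Eb1 alone passed 2-fold in either set. H2-Aa was at 0, 12801, 6659 and 4813 CPM and Cd74, the invariant chain, at 298, 29045, 13904 and 10997 CPM in the 3-month PBS, 12-month PBS, 3-month bleomycin and 12-month bleomycin libraries. The 12-month PBS level came from few cells: H2-Aa was found in 8 of 16 of them, and the median cell had 168 CPM.

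H2-Eb1, the class II beta chain gene of the E isotype, did not follow H2-Aa. It was at 0, 119, 90.9 and 1448 CPM in the 4 libraries in the same order. Per 100 counts of H2-Aa there were 0.93 counts of H2-Eb1 in 12-month PBS, 1.37 in 3-month bleomycin and 30.1 in 12-month bleomycin rule cells. Alveolar cells showed the same split by library, with 1.31, 1.24, 1.47 and 15.8 counts per 100 of H2-Aa. Ly6a, the stem cell antigen Sca-1, was also highest in 12-month bleomycin, at 0, 187, 5.05 and 901 CPM in rule cells. In background cells it was at 6.88, 33.6, 29.2 and 301 CPM. The secretory cluster held 52.0% of its counts in the 12-month bleomycin rule cells. In rule cells Ly6a also differed between 12-month PBS and 3-month bleomycin, where H2-Eb1 per 100 counts of H2-Aa was similar. The 3-month bleomycin level of Ly6a rested on 1 count, and in background cells these libraries were close, at 33.6 and 29.2 CPM. The labels used here give the alleles of the mice but not the strain background of each pool, so a difference in background between the pools cannot be told apart from age and treatment in these 2 genes.

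In the alveolar macrophage list 9 of 11 tested genes were lower by 2-fold or more in the 12-month bleomycin cells and 0 higher over all rule cells, with a median log2 ratio of -1.52, against 6.59% of all genes lower and a median of -0.11. In the set with rule genes at 0.5% or more 4 of 11 were lower, against 2.8% of all genes. In the 11 and 16 cells of 12- and 3-month bleomycin with fewer than 2 neutrophil, dendritic or B cell markers the median of the list turned to 0.52, and Chil3, Ear1, Ear2 and Lpl were at 0.32, 1.40, 1.38 and 0.46. Chil3 was at 217 against 889 CPM (-2.04, -2.31 to -1.75), and Ear1 at 215 against 813 CPM (-1.92, -2.21 to -1.63). A single 3-month cell held 46.0% of the Ear1 counts of its library, and without the highest cell of each library the log2 ratio was -1.61. Fabp4, a fatty acid-binding protein, was 1 of the 4, but 91.4% of its 3-month counts were in 1 cell and its log2 ratio turned from -1.85 to 0.94 without the highest cell of each library.

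In the Trem2 and Spp1 injury macrophage list 5 of 13 tested genes were lower and 1, Arg1, was higher, and in the list of interstitial and monocyte-derived macrophages 6 of 11 were lower and 0 higher, against 6.59% of all genes lower and 7.31% higher. With rule genes at 0.5% or more these counts were 2 lower and 1 higher of 13, and 3 lower and 0 higher of 11, against 2.8% and 6.02% of all genes. Spp1 had a log2 ratio of -2.28 (-2.34 to -2.21) over all rule cells, -1.70 in the smaller set, and -0.93 there without the highest cell of each library. Apoe had -2.09 (-2.15 to -2.03), -1.50 and -1.35 under the same steps, and Trem2 was at 398 against 818 CPM in the smaller set (-1.04, -1.33 to -0.74). Gpnmb and Ctsd did not pass 2-fold in the smaller set, with log2 ratios of -0.11 (-0.40 to 0.21) and -0.69 (-0.79 to -0.59). Arg1, arginase 1 of alternatively activated macrophages, was at 176.5 against 11.4 CPM in the smaller set (3.64, 2.08 to 7.02), from 12.5% of the 12-month cells and 2 counts in the 3-month library. Within clusters the direction varied. In the Apoe and Gpnmb cluster, with 4 cells of 3-month and 14 of 12-month bleomycin, Spp1 was at 41628 and 13445 CPM but Gpnmb at 826 and 1925 CPM. In the Mmp12 cluster, with 5 and 4 cells, Spp1 was at 14404 and 20973 CPM and Lpl at 1055 and 3705 CPM.

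Lower genes in both sets also included Fam20c, a secretory-pathway kinase, at 37.2 against 131 CPM in the smaller set (-1.81, -2.67 to -0.94), Il11ra1, the interleukin-11 receptor, at 68.9 against 199 CPM (-1.53, -2.18 to -0.86), and Rsrp1 at 102 against 335 CPM (-1.72, -2.23 to -1.20). Over all rule cells Atp6v0d2, a proton pump subunit, was at 90.02 against 354 CPM (-1.98, -2.42 to -1.52), Tbxas1, thromboxane synthase, at 40.2 against 167 CPM (-2.06, -2.72 to -1.37), Dpep2 at 37.0 against 126 CPM (-1.79, -2.51 to -1.01), and Itgb7, an integrin chain, at 27.3 against 106 CPM (-1.97, -2.78 to -1.10). Cx3cr1, the fractalkine receptor, was at 50.6 against 192 CPM (-1.93, -2.53 to -1.30), but 1 cell held 52.6% of its 3-month counts and the log2 ratio was -1.14 without the highest cell of each library.

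**Figure D5:**
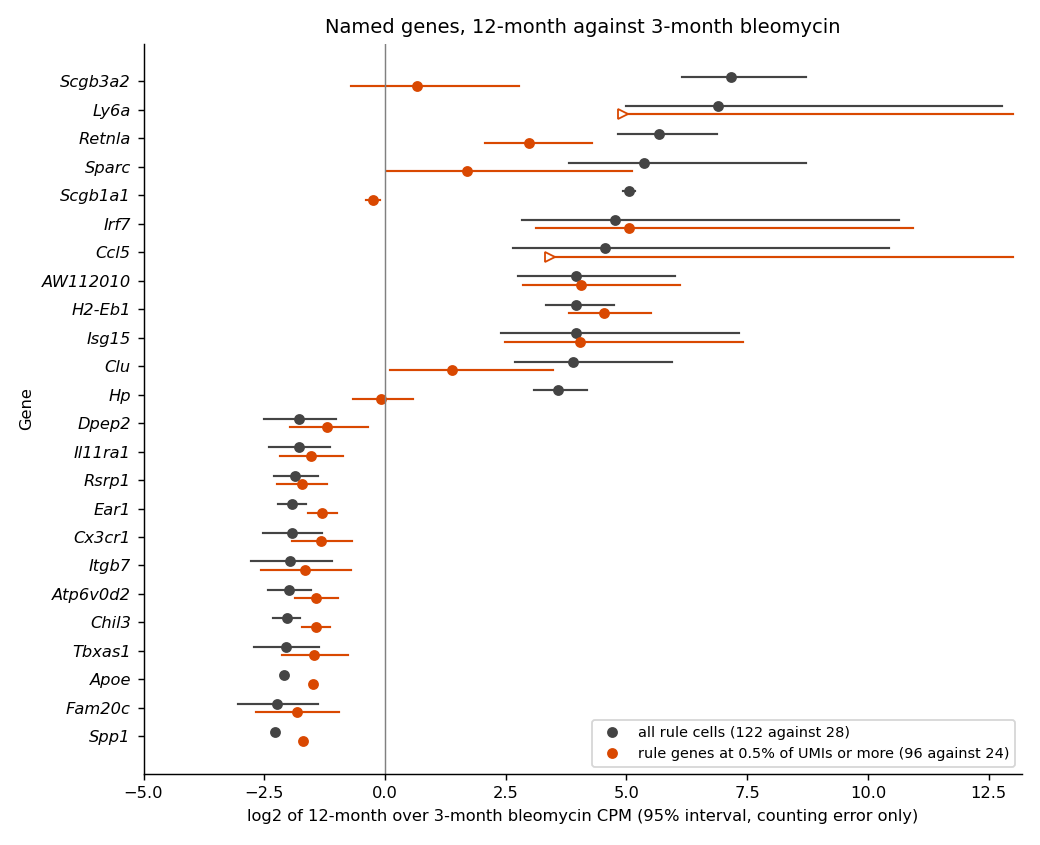
The log2 ratio of 12-month over 3-month bleomycin CPM for the 24 named genes, over all rule cells (grey) and over those with rule genes at 0.5% of UMIs or more (orange), with exact 95% intervals for counting error, cut at 13 where they run further; open triangles mark the lower bound for Ly6a and Ccl5, which had 0 counts in the 3-month cells of the second set. Scgb3a2, Scgb1a1, Clu and Hp move towards or past 0 in the second set, while Irf7, H2-Eb1 and Isg15 are at 5.05, 4.54 and 4.03 and Spp1 and Apoe at -1.70 and -1.50 there.

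Chemokine genes went both ways. Of the 11 of that list tested over all rule cells, 2 were higher in the 12-month bleomycin cells (Ccl4 and Ccl8; 7.31% of all genes were higher) and 4 lower (Ccl3, Ccl6, Ccl9 and Ccl12; 6.59% were lower), with a median log2 ratio of -0.36; Ccl6 is a rule gene. In the smaller set 4 of 13 were higher (Ccl4, Ccl8, Cxcl9 and Cxcl10; 6.02% of all genes) and 0 lower, with a median of 0.39. Ccl5, a T cell and dendritic cell chemokine, was at 178 against 5.05 CPM (4.55, 2.64 to 10.4; 1 count in the 3-month library), with 33.5% of its 12-month counts in 1 cell. The transcript AW112010 was at 354 against 20.2 CPM (3.96, 2.76 to 6.01). In the smaller set Ccl4, an inflammatory chemokine, was at 524 against 45.4 CPM (3.44, 2.53 to 4.75), Zbp1, a nucleic acid sensor, at 119 against 5.68 CPM and Cxcl10, an interferon-induced chemokine, at 117 against 5.68 CPM, both with 1 count in the 3-month library. Of the monocyte list, Ly6c2, Plac8 and Ms4a4c were higher and Ccr2 and F13a1 lower among the 6 tested, against 7.31% and 6.59% of all genes. S100a4 was also higher in the smaller set, where 4 of 6 were higher and 2 lower, against 6.02% and 2.8% of all genes. Jchain was at 6479 against 5.05 CPM and remained at 2634 against 5.68 CPM in the smaller set, where 68.4% of its counts were in 1 cell; its background was 100.2 CPM in the 12-month library.

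Among the other functional lists, the 20 lysosomal genes tested had a median log2 ratio of -0.71 over all rule cells and -0.26 in the smaller set. Ctsd, Lipa and Cd68 were lower over all rule cells, and in the smaller set none passed 2-fold in either direction. Of the 12 genes of lipid uptake and storage tested, 4 were lower over all rule cells (Lpl, Fabp4, Apoe and Lipa; median -0.85) and 2 in the smaller set (Fabp4 and Apoe; median -0.30), with 0 higher in either. Of the 4 genes of alternative activation tested over all rule cells, Arg1 and Retnla were higher and Chil3 and Mrc1 lower. In the smaller set 3 of 5 were higher (Arg1, Retnla and Ccl17) and 1 was lower (Chil3). None of the 9 glycolysis genes tested passed 2-fold over all rule cells, and Hk2 alone was higher in the smaller set. Of the 11 immediate early genes tested Egr1 was higher and Atf3 lower over all rule cells, and Egr1 alone passed 2-fold in the smaller set. Of the 14 proliferation genes 2 reached the level tested and neither passed 2-fold.

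Markers of other cells moved with these ratios. In the 3- and 12-month bleomycin rule cells the 8 neutrophil genes summed to 243 and 2194 CPM and the 7 B and plasma cell genes to 96.0 and 6839 CPM. The 16 AT2 and epithelial genes summed to 18623 and 25924 CPM, and the 9 fibroblast and mesothelial genes to 20.2 and 701 CPM. In the smaller set the AT2 and epithelial sums were close, at 18786.5 and 19121 CPM, and the fibroblast and mesothelial sums were 22.7 and 101 CPM. The neutrophil sums there were 273 and 3658 CPM and the B and plasma cell sums 28.4 and 2887 CPM. The part of these markers in the ratios was not tested. Over all rule cells T and NK cell genes, which the rule limits, stood at 20.2 and 116 CPM and erythroid genes at 0 and 0.80 CPM. With fewer than 2 neutrophil, dendritic or B cell markers per cell only 11 and 16 rule cells of 12- and 3-month bleomycin remained, too few for a ratio by the number set here. In those few cells several lower genes turned, as listed with the other settings.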

How the data were processed

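Droplet libraries of sorted cells, 1 for each of 4 groups of 3 pooled mice, were analysed from the deposited count matrices, which hold whole UMI counts per gene and cell. Per the submitters' processing notes, Cell Ranger and Seurat 3.2.2 were used with genome build mm10; the role of each, the annotation and any filter on cells before deposit are not given in the sources used here. Matrix totals ran from 11381566 to 36960380 UMIs over 2452 to 3006 barcodes per library. The members, gene lists and rules were chosen with earlier results of these data known.

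The filter kept cells with 500 or more genes and mitochondrial UMIs up to 20%. Counts of rule cells were summed per library and divided by their total to give CPM. With 1 library per group no test across samples was run and no p-value is given; Poisson intervals for levels, Clopper-Pearson intervals for shares and conditional binomial intervals for ratios are exact, at 95%, and cover counting error only. UMIs mark molecules, so amplification copies are not counted, but cells of a library share animals and free RNA. The limit for 0 counts was 3 counts. A gene was called when it differed by 2-fold or more and reached 100 CPM in at least 1 library. Named genes were the 12 highest and 12 lowest ratios among called genes found in 20% of the cells of the higher library, with an interval excluding 0, leaving out mitochondrial, ribosomal, haemoglobin, immunoglobulin, sex-linked and predicted genes, rule genes and genes of other cell types; members of the gene lists were named where a list is described, and single genes outside these rules (such as those of clusters) after their values were seen, and the 25 highest ratios against alveolar cells were taken at 100 CPM and 20% of cells. The ratio step was tested on simulated counts.

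Rule cells were clustered with scanpy 1.11.5 (counts scaled to 10000 and log-transformed, 1500 variable genes, 15 components, 10 neighbours, Leiden resolution 1). A cluster was given a name with "-like" when at least 2 of its 10 leading genes were in a marker list, more than in any other list, with at least 3 of that list's genes in 20% of its cells; the Mmp12 cluster met this but was left unnamed, as its first gene is from another list. The clustering and this naming rule were set after the data were seen. Doublets were scored with Scrublet in scanpy and the highest scores called at 0.8% per 1000 barcodes (48, 63, 56 and 72 barcodes); 1 rule cell was called and kept in the main values. Gene positions are from GENCODE M21 (GRCm38, the same assembly as mm10). GFP was not analysed here. Some results are not reported here.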

Additional observations from a re-analysis of the deposited data

Results flagged for a closer look

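A pair of signals lay in cells that the rule leaves out, in the 12-month bleomycin library above the interval of the PBS library of the same age. Cells with 5 or more rule genes and 2 or more T or NK cell genes were 80 of 2993, 2.67% (2.13 to 3.32%), against 2 of 2745, 0.073%, in the 12-month PBS library. Their rule genes made up a median of 1.41% of UMIs, close to the 1.47% of the rule cells, 42 of the 80 had all 9 rule genes, and C1qa was at 2540 CPM and Cd3d at 209 CPM; 10 of the 80 were called doublets. Cells with 5 or more rule genes and Sftpc at 5% of UMIs or more were 59 of 2993, 1.97% (1.504 to 2.54%), against 2 of 2745 in the 12-month PBS library. Their rule genes made up a median of 0.043% of UMIs, C1qa was at 47.8 CPM, and 6 of the 59 were called doublets.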

How the results depend on the processing

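No paired analysis was possible because each group is a single library and the labels carry no shared replicate numbers; for the same reason no replicate could be left out. The share of rule cells in the 3-month PBS library fell to 0% with a filter of 1000 genes and up to 10% mitochondrial UMIs, and to 0% with cells reduced to 2000 UMIs. In the 12-month PBS library it was 0.33% with 6 of 9 rule genes. In the 12-month bleomycin library it was 4.91% with 4 of 9, 3.37% with 6 of 9, and 3.21% with rule genes at 0.5% of UMIs or more. The number of genes higher in 12-month than 3-month bleomycin cells, 101, was 189 with fewer than 2 neutrophil, dendritic or B cell markers per cell, 53 at a minimum of 200 CPM and 1212 with 10 counts and no level minimum. The number lower, 91, was 52 with median-of-ratios scaling, 145 with cells reduced to 3000 UMIs, 160 with fewer than 2 of those markers, 44 at 200 CPM, 979 with 10 counts and no minimum, and 39 with rule genes at 0.5% or more. Median-of-ratios scaling moved the median log2 ratio of all genes tested from -0.11 to 0.06.

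Of the 24 named genes, 18 kept their direction in all 12 settings run on single genes. Scgb1a1 turned to -0.54 with fewer than 2 of those markers and -0.25 with rule genes at 0.5% or more, and Hp to -2.22 and -0.073. With fewer than 2 of those markers, on 11 and 16 cells, the log2 ratio was 0.32 for Chil3, 0.65 for Cx3cr1, 1.40 for Ear1, 1.38 for Ear2, -1.80 for S100a8, 0.46 for Lpl, 0.067 for Ctsd and 0.52 for the median of the alveolar macrophage list. Itgb7 was at 0.31 in cells with all 3 C1q chains. Without the 3-month PBS library the ratio of Ear1 to alveolar cells was 370-fold in place of 847-fold. The settings with rule genes at 0.5% or more, with all 3 C1q chains, with the highest cell left out and with coarser clusters were chosen after seeing the data. Beyond construction (fewer cells or genes), the cause was not tested. The depth of the 2 cells of 3-month PBS, 3354 UMIs in all, allowed no level below 894 CPM to be told from 0.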
